A study of Homo sapiens with 12 samples.

Results

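Cells treated with the CDC7 inhibitor XL413 alone were compared directly with cells treated with the BRPF1/2/3 inhibitor OF1 alone, across all measured genes. The members of the comparison were the 3 libraries labelled XL413 and the 3 labelled OF1, 6 of the 12 libraries of the series. Every library came from A375, an established human melanoma line, and the compounds were each given at 1 µM for 24 h before RNA extraction. The XL413 libraries came from cells given XL413 and no OF1, and the OF1 libraries from cells given OF1 and no XL413. The other 6 libraries, from cells given the DMSO vehicle or both compounds, entered no test here. DMSO levels are quoted beside some genes for context only. Each arm was 1 line at 1 dose and 1 time. The design text calls the 3 libraries of an arm biological replicates but does not describe separate cultures, so each p-value rests on how far libraries of an arm differed, which may be technical. In bulk RNA, fewer cells of one kind and less RNA per cell cannot be told apart.

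CDC7 is a serine/threonine kinase that is active with its regulatory partner DBF4. It phosphorylates the MCM helicase loaded at replication origins, a step that lets origins fire in S phase, and XL413 competes with ATP in its active site. BRPF1, BRD1 (also called BRPF2) and BRPF3 are scaffold proteins whose bromodomains read acetylated histones and which hold the acetyltransferases KAT6A (MOZ), KAT6B (MORF) and KAT7 (HBO1) in chromatin complexes, and OF1 occupies those bromodomains. ATF4, named repeatedly below, is the transcription factor translated when the kinases of the integrated stress response phosphorylate eIF2α, for example when amino acids run short. It turns on genes of amino acid uptake, serine and asparagine synthesis and tRNA charging.

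Among 38 gene lists, the targets of ATF4 had the largest share of members that differed between the compounds. Of 36 tested, 28 were lower in XL413 and 0 were higher, and 11 of 37 aminoacyl-tRNA synthetase genes were lower, where 3.84% of all tested genes were lower in XL413. In the other direction, 19 of 40 mitotic genes, 5 of 9 genes of the CDC7 kinase and MCM helicase, 5 of 21 histone genes and 9 of 29 secreted factors and NF-kB targets, MMP3 and CCL2 among them, were higher in XL413, where 3.88% of all tested genes were higher. The differences were small: the median size among the called genes was 0.22 on the log2 scale.

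Promoter sequence is shown for called members of 4 of these groups, so that the letters each group is known for can be seen beside the values. The windows cover 250 bases before to 50 after the RefSeq start site (GRCh38.p14), are written 5′ to 3′ along the gene, and have the searched motif in capitals. The motif TGATGNAA, the letters of the C/EBP-ATF element that ATF4 dimers bind, was searched on both strands and occurred in 3.62% of all 35116 promoter windows. It was present in 7 of the 23 called ATF4 targets that matched a window (ASNS, CEBPG, CHAC1, SLC3A2, SLC1A5, SLC1A4 and SLC7A1) and in 1 of 7 that were not called. Among the tRNA synthetases it was present in 5 of the 7 genes called lower that matched a window (IARS, TARS, NARS, CARS and AARS) and in 1 of 18 that were not called. A match describes letters in a window and is not evidence of binding.
ASNS (chr7:97872359-97872658, minus strand): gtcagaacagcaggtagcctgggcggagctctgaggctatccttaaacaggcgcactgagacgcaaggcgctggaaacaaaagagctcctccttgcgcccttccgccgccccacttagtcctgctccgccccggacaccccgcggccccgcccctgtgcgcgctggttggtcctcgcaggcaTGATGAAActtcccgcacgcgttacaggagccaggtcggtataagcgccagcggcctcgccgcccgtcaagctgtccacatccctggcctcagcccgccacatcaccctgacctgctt
CEBPG (chr19:33373863-33374162, plus strand): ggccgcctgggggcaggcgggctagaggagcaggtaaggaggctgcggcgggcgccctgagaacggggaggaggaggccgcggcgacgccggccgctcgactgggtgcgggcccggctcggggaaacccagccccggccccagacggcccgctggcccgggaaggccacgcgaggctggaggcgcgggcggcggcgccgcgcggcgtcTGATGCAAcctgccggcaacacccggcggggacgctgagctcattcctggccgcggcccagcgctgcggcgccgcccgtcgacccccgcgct
IARS (chr9:92293648-92293947, minus strand): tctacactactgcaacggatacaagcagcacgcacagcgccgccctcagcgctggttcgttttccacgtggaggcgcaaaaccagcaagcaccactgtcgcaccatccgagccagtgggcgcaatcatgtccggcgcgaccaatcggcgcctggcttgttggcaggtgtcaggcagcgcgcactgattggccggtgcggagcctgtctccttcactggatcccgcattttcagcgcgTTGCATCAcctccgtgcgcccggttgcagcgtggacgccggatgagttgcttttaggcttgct
The IARS window carries the motif as its reverse complement, TTGCATCA.

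For the mitotic genes the searched letters were TTTGAA, the core of the cell cycle homology region read by the DREAM complex, again on both strands. They occurred in 15.2% of all windows, in 10 of the 15 matched mitotic genes called higher and in 11 of the 16 that were not called. Both windows below hold the motif at a pair of positions, in CDC20 once as its reverse complement TTCAAA.
HMMR (chr5:163460382-163460681, plus strand): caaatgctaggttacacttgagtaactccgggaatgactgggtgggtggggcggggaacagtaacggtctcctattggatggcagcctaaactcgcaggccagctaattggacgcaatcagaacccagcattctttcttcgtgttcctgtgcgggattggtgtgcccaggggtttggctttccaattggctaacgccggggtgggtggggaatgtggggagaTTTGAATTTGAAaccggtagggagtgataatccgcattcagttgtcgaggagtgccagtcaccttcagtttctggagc
CDC20 (chr1:43358731-43359030, plus strand): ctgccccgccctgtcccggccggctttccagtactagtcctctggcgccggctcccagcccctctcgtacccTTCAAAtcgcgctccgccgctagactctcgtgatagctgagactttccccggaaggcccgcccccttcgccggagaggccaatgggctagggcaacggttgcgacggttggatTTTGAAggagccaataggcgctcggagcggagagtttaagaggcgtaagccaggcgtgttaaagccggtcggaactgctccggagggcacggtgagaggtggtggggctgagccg
For the secreted factors the letters were those of an NF-kB element, GGGA, any base, then TTTCC, on both strands, and they occurred in 0.558% of all windows. They were present in 4 of the 6 matched genes called higher (CXCL1, NFKB2, NFKBIZ and NFKBIA) and in 6 of the 16 that were not called.
CXCL1 (chr4:73869143-73869442, plus strand): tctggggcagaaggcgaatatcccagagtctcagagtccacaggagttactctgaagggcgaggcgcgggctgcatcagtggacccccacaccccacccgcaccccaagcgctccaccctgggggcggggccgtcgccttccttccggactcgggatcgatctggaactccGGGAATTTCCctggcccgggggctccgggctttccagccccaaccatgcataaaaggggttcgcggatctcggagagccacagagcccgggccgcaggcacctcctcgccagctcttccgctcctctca

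The 6 libraries held 30499559 to 35777606 expected counts each, and 15009 of the 26475 entries of the table passed the filter on low counts. All 6 libraries expressed SOX10, the neural crest and melanocyte regulator, at 334 to 386 CPM (counts scaled to a common library size), but 13 of 22 genes on a melanocyte list stayed under 1 CPM, TYR was at 0 in every library, and MLANA and DCT were under 1 CPM. Markers of other cell types were read in the same libraries. Summed over 42 skeletal muscle fibre genes, the level ran from 187 to 401 CPM in XL413 and from 184 to 414 CPM in OF1, a spread within each arm larger than any between them, and 0 of the 36 tested were called. Muscle progenitor genes summed to 427 to 478 CPM in XL413 and 380 to 493 CPM in OF1, fibroblast genes to 279 to 326 CPM and 299 to 328 CPM, and smooth muscle genes to 160 to 189 CPM and 154 to 189 CPM. Endothelial genes summed to 29.8 to 31.1 CPM in XL413 and 28.04 to 29.9 CPM in OF1. Of the tested members of these 4 lists, 1 fibroblast gene was called (TWIST2, 0.37 on the log2 scale, adjusted p = 0.0471).

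Across the 15009 tested genes, edgeR's quasi-likelihood test with Benjamini-Hochberg adjustment called 1158 at an adjusted p under 0.05, which is 7.72% of them. These divided into 582 higher in XL413 (3.88%) and 576 lower (3.84%). The libraries of the arms did not overlap for 1153 of the 1158. Across all tested genes, 14.6% had all XL413 libraries above all OF1 libraries and 14.3% had them all below. Few called genes moved far: 74 differed by over 1.5-fold (43 higher, 31 lower) and 21 by over 2-fold (14 higher, 7 lower). Replicates were tight, with a common biological coefficient of variation of 0.042, and the first principal component, with 27.5% of the variance, separated the arms. The count of calls depended on single libraries. It was 687, 317 and 450 without XL413 libraries 1, 2 and 3, and 780, 339 and 1704 without OF1 libraries 1, 2 and 3.

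**Figure D1:**
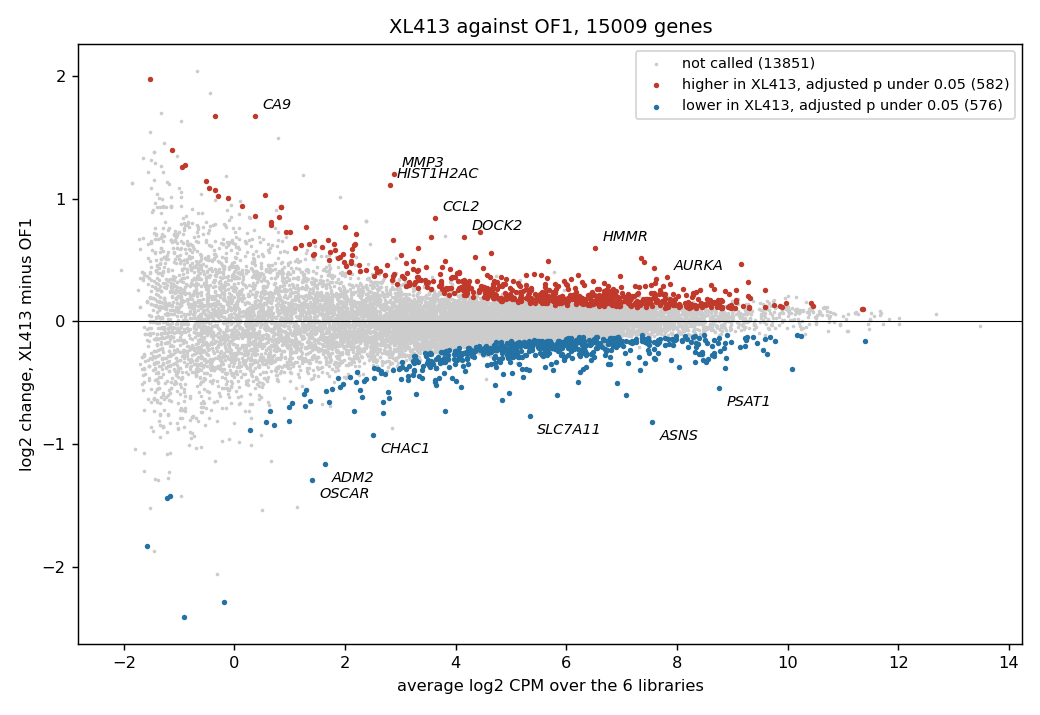
Log2 change (XL413 minus OF1, vertical axis) of each of 15009 tested genes against its average log2 CPM over the 6 libraries (horizontal axis); red points are the 582 genes higher in XL413 and blue points the 576 lower, and grey points were not called. ASNS lies far below the other genes of its level, while most coloured points sit close to the zero line.

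ATF4-responsive genes of amino acid supply were lower in XL413. ASNS, which makes asparagine from aspartate (chromosome 7, 97851677 to 97928441), had 133, 137 and 137 CPM in the XL413 libraries, against 238, 243 and 239 CPM in the OF1 libraries. The DMSO libraries had 154, 148 and 151 CPM. Every OF1 library was above every XL413 and DMSO library, and the difference of -0.82 ± 0.03 (log2, SE; adjusted p = 2.22e-08), an OF1 level 1.77 times that in XL413, had the lowest p of all genes.

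The serine branch moved with it. PSAT1, the aminotransferase of serine synthesis, had 349, 349 and 362 CPM in XL413, against 511, 521 and 513 CPM in OF1 (390, 393 and 387 CPM in DMSO). Its XL413 libraries were below the lowest OF1 library throughout, by -0.54 ± 0.03 (adjusted p = 1.12e-06). PHGDH, which commits a glycolytic intermediate to serine, averaged 326 CPM in XL413 and 410 CPM in OF1, a log2 change of -0.33. SHMT2, which passes serine carbon to mitochondrial folate, averaged 336 CPM in XL413 and 416 CPM in OF1, a log2 change of -0.31. MTHFD2, the next mitochondrial folate enzyme, averaged 293 CPM in XL413 and 348 CPM in OF1, a log2 change of -0.25. PSPH, which removes the last phosphate in serine synthesis, was not called (log2 change -0.19). The proline enzyme PYCR1 (log2 change -0.41) and PCK2, the mitochondrial enzyme that makes phosphoenolpyruvate (log2 change -0.64), were also lower.

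Amino acid transporters followed the same direction. SLC7A11, the cystine carrier (chromosome 4, 138164097 to 138242349), had 31.6, 27.4 and 30.3 CPM in XL413, against 56.6, 48.7 and 47.5 CPM in OF1 and 35.4, 35.4 and 36.4 CPM in DMSO. The highest XL413 library was well under the lowest OF1 library, and the log2 change was -0.77 ± 0.07 (adjusted p = 6.03e-05). SLC7A5, the large neutral amino acid carrier, averaged 932 CPM in XL413 and 1216 CPM in OF1 (log2 change -0.38). Its partner chain SLC3A2 had a log2 change of -0.30. The glutamine carrier SLC1A5 had a log2 change of -0.26 and the neutral carrier SLC1A4 one of -0.40. Cationic and system A carriers were lower by less, with log2 changes of -0.17 for SLC7A1 and -0.21 for SLC38A2.

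Several regulators and stress effectors of the list were lower too. ATF4 itself had 309, 318 and 314 CPM in XL413, against 367, 388 and 379 CPM in OF1 and 353, 344 and 338 CPM in DMSO. These ranges did not overlap, and the log2 change was -0.27 (adjusted p = 0.000358). ATF4 activity is set mainly by translation, which RNA counts do not read. CEBPG, a dimer partner of ATF4, had 31.6, 30.03 and 32.04 CPM in XL413 and 42.4, 42.7 and 43.1 CPM in OF1, a log2 change of -0.45 ± 0.04. CHAC1, which degrades glutathione, had 4.05, 3.66 and 3.998 CPM in XL413, against 7.02, 7.78 and 7.49 CPM in OF1 and 5.96, 5.51 and 3.93 CPM in DMSO. Its arms were separated by nearly the XL413 level itself, with a log2 change of -0.93 ± 0.10 (adjusted p = 0.000221). GDF15, a secreted stress cytokine, had 9.96, 9.79 and 11.6 CPM in XL413, against 17.8, 18.2 and 16.3 CPM in OF1 and 11.6, 11.7 and 11.1 CPM in DMSO. Every OF1 library was above the rest, and the log2 change was -0.73 ± 0.08 (adjusted p = 0.000165).

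Further called members were TRIB3, the pseudokinase that feeds back on ATF4 (log2 change -0.25), PPP1R15A, which directs eIF2α dephosphorylation (-0.29), NUPR1 (-0.48), VEGFA (-0.28), and CTH and CBS of cysteine synthesis (-0.62 and -0.28). ADM2, a secreted peptide hormone, had 1.54, 1.57 and 2.53 CPM in XL413 and 4.21, 4.41 and 4.06 CPM in OF1, a log2 change of -1.16 ± 0.18 at a low level. VLDLR (-0.43), XBP1 (-0.21) and SESN2 (-0.21) completed the 28 called. DDIT3, which encodes CHOP, the factor tied to stress-induced death, DDIT4, STC2, SLC43A1, ALDH18A1, CEBPB and ATF3 were not called; the log2 changes of CEBPB and ATF3 were 0.06 and 0.01. The list median was -0.28, against -0.00 for all tested genes, and its called share of lower genes can be set beside 3.84% overall. Leaving out each library in turn gave 23 to 28 members lower. In a test against a 1.2-fold change, 8 members remained past the threshold. List members beyond the naming rule were named here after their values were seen.

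**Figure D2:**
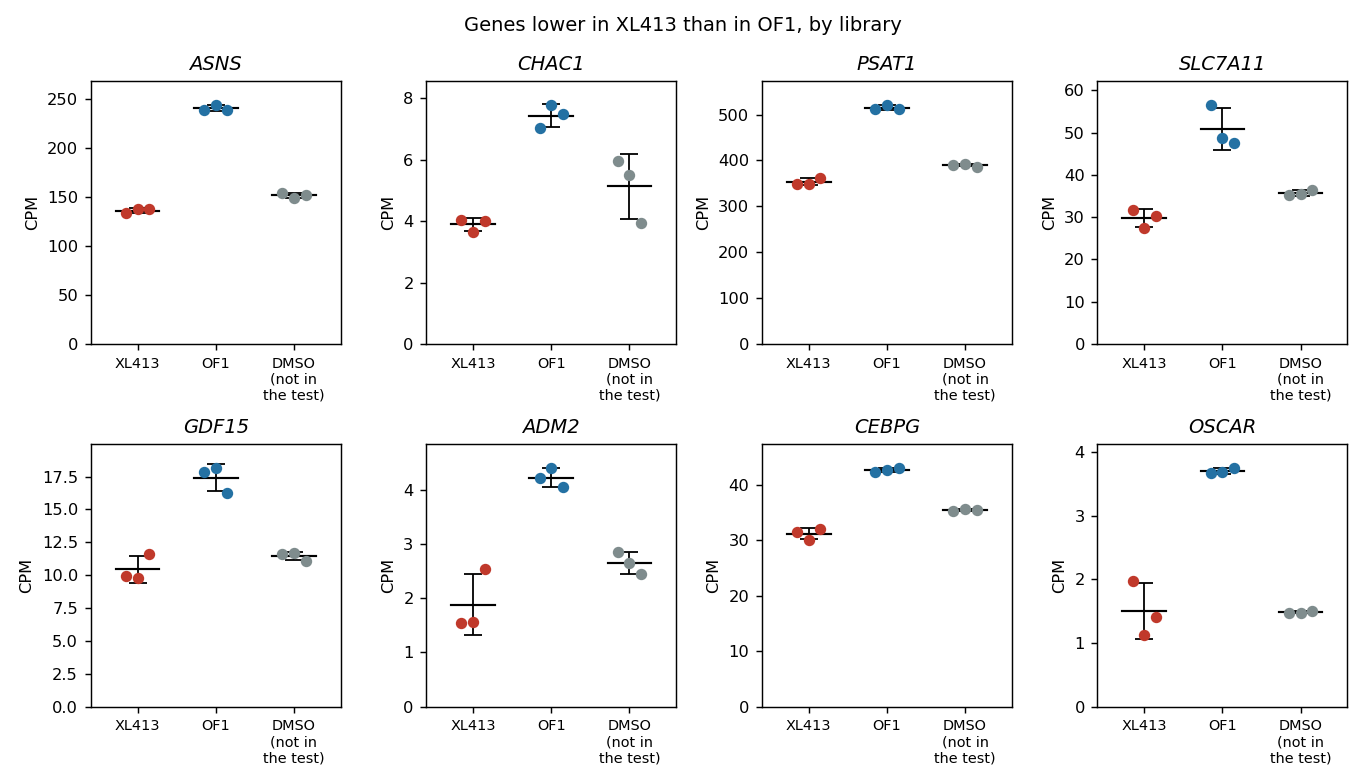
CPM (vertical axes, each starting at 0) of 8 genes lower in XL413, by treatment; points are single libraries, black bars the mean and SD of 3 libraries, and DMSO is shown for context. In every panel the 3 XL413 points lie below the 3 OF1 points, for ASNS at 133 to 137 against 238 to 243 CPM.

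The tRNA synthetases divided. Of 37 tested, 11 were lower and 1 higher in XL413, with a list median of -0.03. GARS, which charges glycine, had 282, 280 and 287 CPM in XL413, against 357, 360 and 350 CPM in OF1 and 304, 305 and 296 CPM in DMSO. The arms were clear of each other, with a log2 change of -0.33 ± 0.03 (adjusted p = 6.03e-05). WARS (-0.31), SARS (-0.30) and MARS (-0.28), the enzymes for tryptophan, serine and methionine, differed by similar amounts, followed by EPRS (-0.21), YARS (-0.18), IARS (-0.17), TARS (-0.16), NARS (-0.15), CARS (-0.14) and AARS (-0.11). HARS, the histidine enzyme, was the gene higher in XL413, by 0.13. The count of lower members fell to 6 without XL413 library 2 and to 7 without OF1 library 2.

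Other stress lists had fewer called members, to be set beside 3.88% of all tested genes higher and 3.84% lower. The NRF2 antioxidant list had 3 of 20 members lower (SLC7A11, NQO1 at -0.15 and TXNRD1 at -0.14) and 0 higher. Of 21 genes of ER chaperones and the unfolded protein response, 4 were higher in XL413 (CALR 0.15, HSP90B1 0.12, PDIA3 0.12 and CRELD2 0.27) and 0 lower. HSPA5, the ER chaperone BiP, averaged 850 ± 5.7 CPM in XL413 and 822 ± 13 CPM in OF1 and was not called (adjusted p = 0.307). Without XL413 library 2 or 3 or OF1 library 2, 1 of the ER genes was called higher, without OF1 library 3 the ER list had 2 higher and 3 lower, and without XL413 library 1 or OF1 library 2, 1 of the NRF2 genes was lower. Heat shock genes had 1 higher and 2 lower of 16, and metallothioneins 0 of 5 called. Among 27 p53 targets 1 was higher (DDB2) and 1 lower (SESN2, also an ATF4 target). CDKN1A, the p53-induced CDK inhibitor p21, averaged 180 ± 6.4 CPM in XL413 and 179 ± 9.2 CPM in OF1, with overlapping libraries. Of 15 BCL2 family genes 2 were lower, MCL1 (-0.11) and PMAIP1 (-0.17). The BCL2 count was 0 lower without XL413 library 1 or 2 or OF1 library 2 or 3 and with upper-quartile factors, and 2 were higher without OF1 library 3. Of the p53 targets 0 were called without XL413 library 1, 2 or 3 or OF1 library 1, and of the heat shock genes 0 were called without XL413 library 2 or OF1 library 2.

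Mitotic genes were higher in XL413. AURKA, the spindle pole kinase, had 253 CPM in each XL413 library and 197 CPM in each OF1 library, with 216 to 218 CPM in DMSO. The replicates were almost identical, and the log2 change was 0.36 ± 0.03 (adjusted p = 3.03e-05). HMMR, a spindle assembly protein, had 109, 109 and 114 CPM in XL413, against 79.2, 72.7 and 67.4 CPM in OF1 and 73.1, 75.5 and 74.9 CPM in DMSO. All XL413 libraries were above the others, with a log2 change of 0.60 ± 0.05, or 1.51-fold. UBE2C, the ubiquitin-conjugating enzyme of the anaphase-promoting complex, had 191, 209 and 190 CPM in XL413 and 137, 141 and 144 CPM in OF1, a log2 change of 0.48.

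CDK1, the kinase that drives entry into mitosis, had 135, 144 and 146 CPM in XL413, against 111, 111 and 107 CPM in OF1 and 103, 104 and 106 CPM in DMSO. The log2 change was 0.37 (adjusted p = 0.000134), again with no overlap. CDC20, the activator of the anaphase-promoting complex, had 431, 432 and 426 CPM in XL413, against 343, 358 and 349 CPM in OF1 and 399, 395 and 389 CPM in DMSO. Its XL413 libraries were above both other groups, and the log2 change from OF1 was 0.29. TOP2A, BIRC5 (survivin), PRC1, CCNB2, PTTG1 (securin) and CCNB1 were higher by 0.18 to 0.32. CENPE and CENPF, large kinetochore proteins, went the other way, with log2 changes of -0.28 and -0.20, but neither was called without XL413 library 2 or 3 or OF1 library 2. CCNA2, cyclin A2, averaged 132 ± 2.8 CPM in XL413 and 131 ± 2.8 CPM in OF1 and was not called (adjusted p = 0.916). The list had 19 of 40 members higher, beside 3.88% of all genes, and 2 lower, with a median of 0.11. The higher count fell to 11 without XL413 library 2 and to 12 without OF1 library 2, and 2 members passed the test against a 1.2-fold change.

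Genes of the pathway that XL413 inhibits were read next. CDC7 itself had 22.5, 24.6 and 22.8 CPM in XL413 and 24.7, 24.6 and 23.5 CPM in OF1. The libraries overlapped, and neither CDC7 (log2 change -0.06 ± 0.05, adjusted p = 0.528) nor DBF4 (-0.02 ± 0.05, adjusted p = 0.856) was called. The helicase subunits did differ. MCM3 had 216, 221 and 221 CPM in XL413, against 171, 170 and 175 CPM in OF1 and 181, 179 and 177 CPM in DMSO. XL413 was above both other groups in every library, with a log2 change of 0.35 ± 0.03 (adjusted p = 5.77e-05). MCM5 (0.23), MCM7 (0.19), MCM2 (0.18) and MCM4 (0.18) were higher too, while MCM6, the remaining subunit, averaged 138 ± 4.1 CPM in XL413 and 132 ± 0.24 CPM in OF1 and was not called (adjusted p = 0.321). The 5 called members stayed called when any 1 library was left out, and 0 passed the test against a 1.2-fold change.

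Other replication genes gave smaller shares, where 3.88% of all tested genes were higher and 3.84% lower. Of 40 genes of origin licensing, firing and the replisome, 7 were higher and 0 lower (median 0.07). GINS2, a subunit of the active helicase, had 61.9, 61.3 and 60.5 CPM in XL413, against 45.3, 51.7 and 51.6 CPM in OF1 and 56.7, 52.2 and 55.1 CPM in DMSO. Its arms did not overlap, with a log2 change of 0.31 ± 0.05, and POLD1, RFC2, TIMELESS, ORC1, PCNA and ORC6 were higher by 0.13 to 0.19. The count was 4, 1 and 3 without XL413 libraries 1, 2 and 3, and 2 without OF1 library 2. Of 30 replication checkpoint and repair genes, 4 were higher, CHEK2 (0.23), ATRIP (0.20) and CDC25B (0.16) among them, and 0 lower, a count that was 1 without XL413 library 1 or 3 or OF1 library 2, 2 without XL413 library 2 or OF1 library 1, and 5 without OF1 library 3. Of 28 G1/S and E2F genes, 5 were higher and 2 lower. TK1 and TYMS, which make thymidine nucleotides, were higher by 0.31 and 0.22. CCND1 and CCNE2, the cyclins D1 and E2, had log2 changes of -0.20 and -0.26. Without OF1 library 2, 1 of the 28 was called higher.

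Histone genes, most of whose messages are made as DNA is copied, included some of the larger changes in this direction. HIST1H2AC (chromosome 6, 26124172 to 26124690), an H2A gene, had 9.17, 9.43 and 9.71 CPM in XL413, against 4.99, 4.18 and 3.91 CPM in OF1 and 5.48, 5.28 and 4.53 CPM in DMSO. The XL413 libraries stood apart from all the others, at 2.16-fold the OF1 level (log2 change 1.11 ± 0.10, adjusted p = 7.64e-05). HIST1H2BK had 26.5, 28.7 and 25.6 CPM in XL413, against 15.03, 18.3 and 15.3 CPM in OF1 and 16.3, 17.3 and 16.3 CPM in DMSO, a log2 change of 0.73. HIST3H2A averaged 14.4 ± 0.18 CPM in XL413 and 8.95 ± 0.30 CPM in OF1, a log2 change of 0.69. HIST1H2BD (0.66) and HIST1H2BJ (1.67, near 1 CPM or below) completed 5 called higher of 21 tested, with 0 lower and a list median of 0.24; 15 of the 36 listed did not pass the filter. The fit without OF1 library 2 called 3, and DESeq2 called 3 and gave HIST1H2BD and HIST1H2BJ no adjusted p. These values are uncertain in a further way: histone genes have near-identical copies between which reads can be split, and most of their transcripts lack the poly(A) tail by which the RNA was selected.

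**Figure D3:**
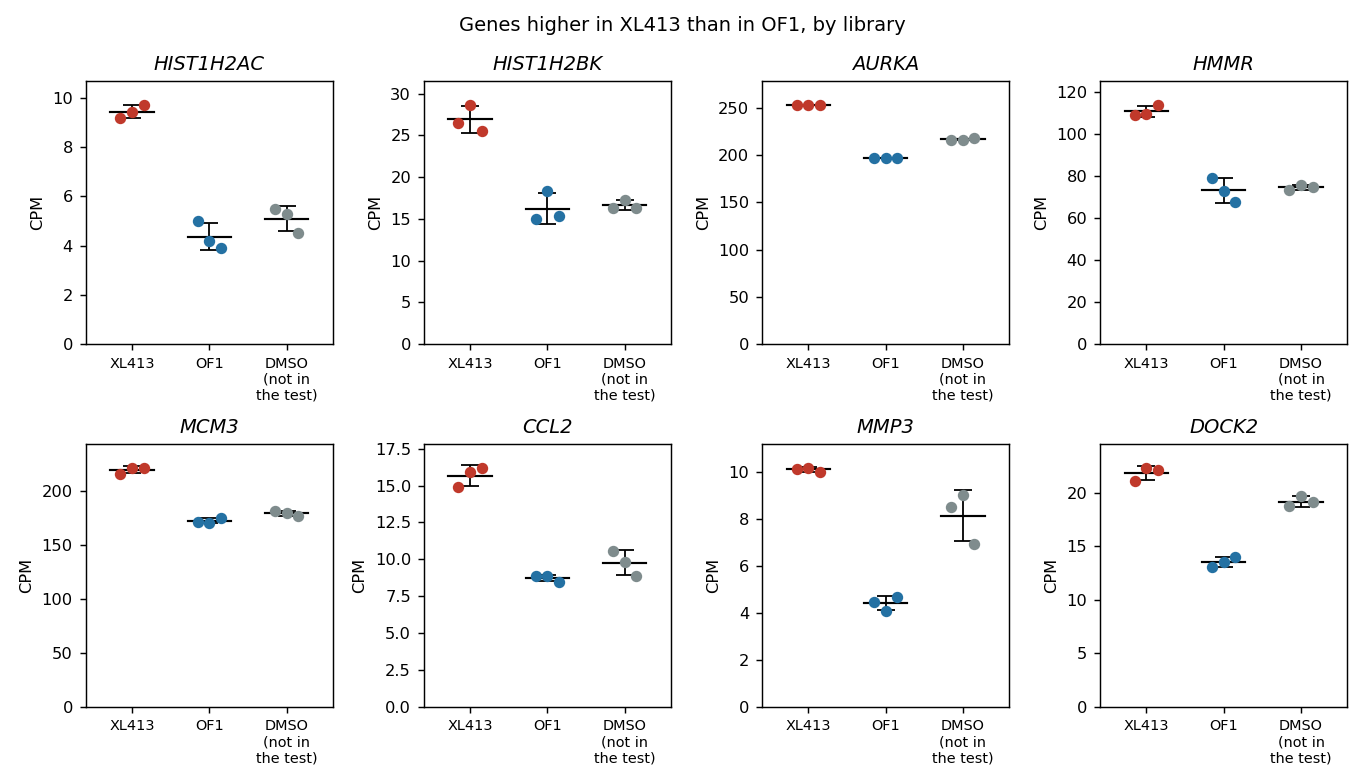
CPM (vertical axes, each starting at 0) of 8 genes higher in XL413, by treatment; points are single libraries, black bars the mean and SD of 3 libraries, and DMSO is shown for context. In every panel the 3 XL413 points lie above the 3 OF1 points, for HIST1H2AC at 9.17 to 9.71 against 3.91 to 4.99 CPM.

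None of the genes that encode the proteins OF1 binds was called. BRPF1 averaged 45.3 ± 1.6 CPM in XL413 and 48.3 ± 1.5 CPM in OF1 (log2 change -0.09 ± 0.04, adjusted p = 0.215). BRD1 averaged 27.1 ± 1.2 CPM in XL413 and 25.4 ± 2.0 CPM in OF1 (0.09 ± 0.06, adjusted p = 0.384). BRPF3 averaged 44.9 ± 2.1 CPM in XL413 and 45.3 ± 1.5 CPM in OF1 (-0.01 ± 0.05, adjusted p = 0.905). KAT6A (-0.17, adjusted p = 0.0852), KAT6B (-0.11) and KAT7 (0.02) were not called either, nor was any of the 12 genes of these complexes, whose median was -0.10. KAT6A did pass the threshold in some fits, without XL413 library 1 (-0.24, adjusted p = 0.0243), without OF1 library 3 (-0.20, adjusted p = 0.0435) and with no filter on low counts (adjusted p = 0.0433). HOX cluster genes, which MOZ complexes are known to keep active, had 1 of 36 higher (HOXB5, 0.40) and 2 lower (HOXB9, -0.33, and HOXD13, -0.26), a share near the background. With single libraries left out, 0 were higher in 5 of 6 fits and 0 lower in 3, and HOXD13 was called in none of the 6 and not by DESeq2. Among 20 BET and other bromodomain readers, 1 was higher (BRD8, 0.16) and 1 lower (BRD2, -0.14). These shares were near those of all tested genes, 3.88% higher and 3.84% lower. Without XL413 library 2 or 3 or OF1 library 2, 0 of these readers were called. Without OF1 library 3, 2 were higher and 4 lower, and with the replicate number as a block 1 was higher and 5 lower.

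Secreted factors and NF-kB targets had 9 of 29 members higher and 1 lower. MMP3, the matrix protease stromelysin 1 (chromosome 11, 102835801 to 102843609), had 10.2, 10.2 and 10.0 CPM in XL413, against 4.45, 4.09 and 4.69 CPM in OF1 and 8.51, 9.02 and 6.92 CPM in DMSO. The OF1 libraries were the low ones, and XL413 was 2.29-fold above them (log2 change 1.197 ± 0.09, adjusted p = 1.87e-05). CCL2, the monocyte chemokine (chromosome 17, 34255285 to 34257203), had 14.9, 15.9 and 16.2 CPM in XL413, against 8.88, 8.86 and 8.48 CPM in OF1 and 10.6, 9.85 and 8.87 CPM in DMSO. Here the XL413 libraries were the high ones, with a log2 change of 0.84 ± 0.07 (adjusted p = 3.03e-05). TNFAIP2 (0.38), ICAM1 (0.34), the chemokine CXCL1 (0.30), NFKBIZ (0.26), NFKBIA (0.19) and NFKB2 (0.18) were also higher. IL24, a cytokine of the IL-10 family, was lower, with means of 14.0 CPM in XL413 and 20.2 CPM in OF1 and a log2 change of -0.54. CXCL8, the neutrophil chemokine, averaged 96.0 ± 3.3 CPM in XL413 and 91.0 ± 2.8 CPM in OF1 and was not called (adjusted p = 0.249), while DMSO averaged 72.7 ± 2.1 CPM.

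Matrix genes moved in part, and the counts here can be set beside 3.88% of all tested genes higher and 3.84% lower. Of 17 metalloproteinases and inhibitors, 5 were higher and 1 lower. MMP1, the interstitial collagenase, had 15.5, 16.7 and 16.5 CPM in XL413, against 12.3, 11.5 and 10.9 CPM in OF1, a log2 change of 0.49 ± 0.07 with no overlap. MMP2 (0.23), MMP19 (0.50) and TIMP2 (0.17) were higher and MMP16 lower (-0.23). Of 33 TGF-beta and extracellular matrix genes, 9 were higher, led by TGFBI (0.30), LOXL2 (0.29) and COL5A2 (0.29), and 1 was lower (CYR61, -0.11). That count of 9 was 4, 3 and 5 without XL413 libraries 1, 2 and 3, and 3 without OF1 library 2, and the metalloproteinase count of 5 was 3 in each of those fits. MMP19 and CYR61 lost their calls whichever library was left out, and in the fit of all 12 libraries. MMP19 was not called by limma-voom either. COL1A1, a fibrillar collagen gene, averaged 101 ± 11 CPM in XL413 and 109 ± 7.6 CPM in OF1, with overlapping libraries. Genes of the AXL-high dedifferentiated melanoma state moved in both directions, with 6 of 25 higher and 3 lower. AXL, its receptor tyrosine kinase, had 385, 350 and 366 CPM in XL413, against 471, 440 and 430 CPM in OF1 and 468, 473 and 484 CPM in DMSO. XL413 was the low group, by -0.28 ± 0.04 (adjusted p = 0.00179), while NGFR, another gene of that state, was higher by 0.20. Without XL413 library 2, 3 genes of that list were higher and 1 lower.

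MAPK output genes had 6 of 22 members lower and 1 higher, with a median of -0.07. Of all tested genes, 3.84% were lower and 3.88% higher. CCND1 had 559, 551 and 558 CPM in XL413, against 650, 639 and 626 CPM in OF1 and 617, 627 and 622 CPM in DMSO. XL413 was below both groups. SPRY2 (-0.19) and SPRED1 (-0.19), feedback inhibitors of the pathway, and the transcription factors ETV1 (-0.20), FOSL1 (-0.14) and EGR1 (-0.23) were lower, and IER3 was higher by 0.17. The lower count was 3, 1 and 2 without XL413 libraries 1, 2 and 3, and 2 without OF1 library 2. EGR1 lost its call whichever library was left out, with DESeq2 and in the fit of all 12 libraries. Of 13 tested melanocyte genes 1 was higher (S100B, 0.20) and 1 lower (BCAN, -0.33). Among the fits with 1 library left out, S100B was called only without OF1 library 3 and BCAN only without OF1 library 1. DESeq2 did not call S100B, and limma-voom and upper-quartile factors did not call BCAN. MITF, the lineage regulator, averaged 38.1 ± 1.5 CPM in XL413 and 39.0 ± 3.2 CPM in OF1.

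Immune and metabolic lists had few called members each, beside 3.88% of all genes higher and 3.84% lower. Interferon-stimulated genes had 3 of 30 higher (ISG15, IRF1 and OAS3) and 0 lower. ISG15 had 9.52, 11.6 and 14.7 CPM in XL413, against 8.04, 7.91 and 7.70 CPM in OF1 and 14.7, 10.97 and 7.76 CPM in DMSO. The spread within XL413 and within DMSO was larger than the distance from OF1 to the lowest XL413 library, and the call on ISG15 was lost in the fit of all 12 libraries. Of the interferon list, 0 were called without XL413 library 2 or 3 or OF1 library 2, and 5 without OF1 library 1. MHC class I genes had 4 of 17 higher (PSME2, B2M, PSMB9 and HLA-C, by 0.15 to 0.20) and 0 lower, and 0 were called in the fit of all 12 libraries or without XL413 library 2 or 3 or OF1 library 2. Cholesterol synthesis had 3 higher and 2 lower of 23, fatty acid synthesis 1 higher and 1 lower of 17, and MYC, polyamine and ribosome biogenesis genes 2 higher and 0 lower of 29. Hypoxia and glycolysis genes had 3 higher and 2 lower of 29. In both the cholesterol and the hypoxia list, 1 gene was called higher without XL413 library 2 or OF1 library 2. CA9, the hypoxia-induced carbonic anhydrase, was the largest of them, with 1.78, 2.05 and 1.80 CPM in XL413 and 0.418, 0.621 and 0.722 CPM in OF1 (log2 change 1.67 ± 0.23, adjusted p = 0.00134).

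Ribosomal protein and respiratory chain genes mostly had log2 changes slightly above 0, and few were called. Of 75 cytosolic ribosomal protein genes, 73 had a log2 change above 0 and 1 was called higher (RPS26), with a median of 0.09. Of 45 oxidative phosphorylation genes, 43 were above 0 and 3 were called (NDUFA8, NDUFA1 and COX7B), with a median of 0.12. The mean log2 CPM of the ribosomal list was 10.11, 10.26 and 10.22 in XL413 and 9.99, 10.12 and 10.17 in OF1, so the arms overlapped and the replicates of each spread as widely. Such genes share a level within each library, so a count of signs over them is not a count of independent observations. Both counts depended on single libraries. Of the ribosomal genes, 10 were called higher without XL413 library 1, 23 without OF1 library 3 and 0 without any of the other 4. Of the respiratory genes, 7 were called without XL413 library 1, 17 without OF1 library 3 and 0 without any of the other 4. In the fit of all 12 libraries 0 of either were called.

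**Figure D4:**
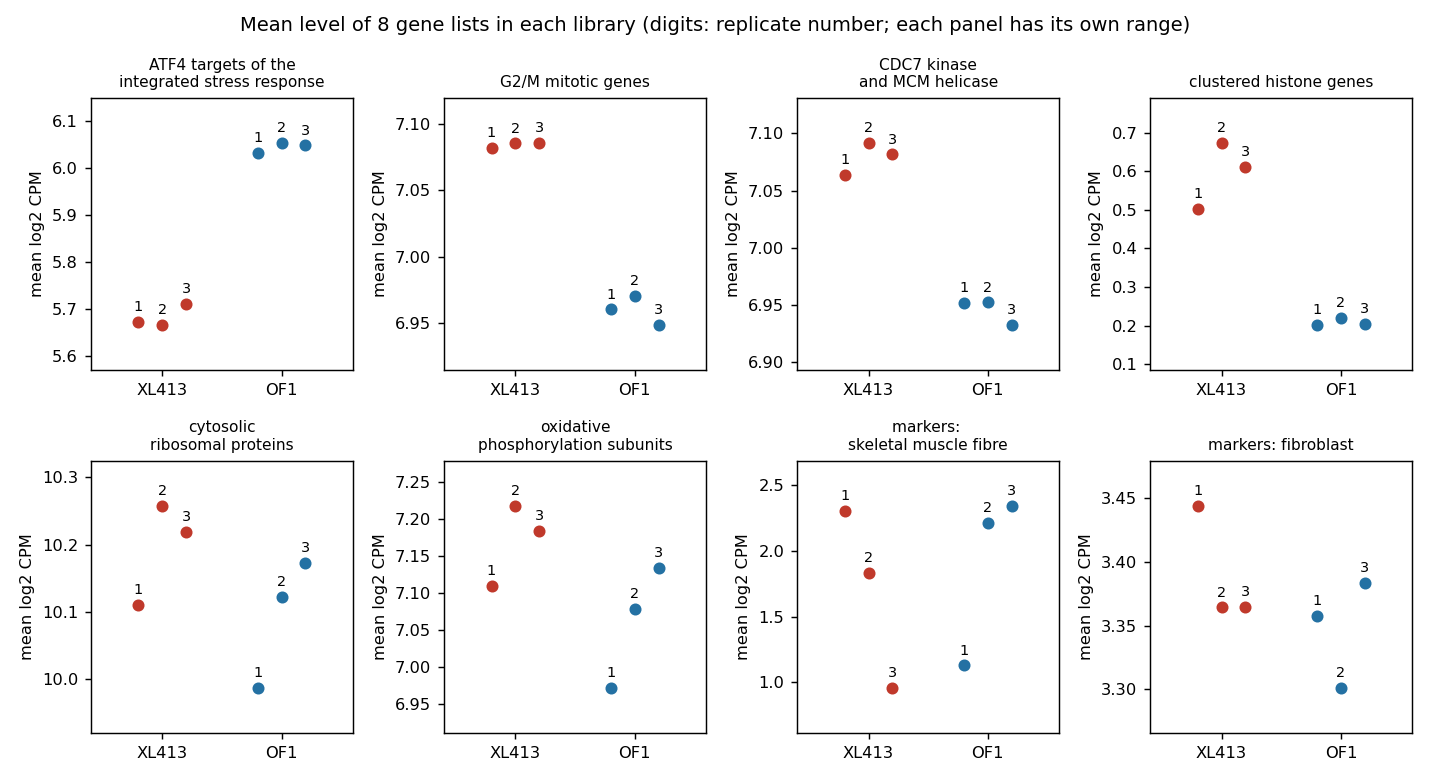
Mean log2 CPM (vertical axes, each with its own range) of 8 gene lists in each XL413 and OF1 library, with the replicate number beside each point. The ATF4 list separates the arms at 5.67 to 5.71 in XL413 against 6.03 to 6.05 in OF1, whereas the ribosomal and skeletal muscle fibre lists overlap.

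Genes outside the lists were named by the size of their change. DOCK2, a Rac activator best known from leukocytes (chromosome 5, 169637275 to 170083382), had 21.1, 22.4 and 22.1 CPM in XL413, against 13.1, 13.6 and 14.0 CPM in OF1 and 18.7, 19.7 and 19.1 CPM in DMSO. OF1 was the low group, and the log2 change was 0.69 ± 0.06 (adjusted p = 3.89e-05). ATOH8, a basic helix-loop-helix factor, averaged 4.93 ± 0.083 CPM in XL413 and 2.90 ± 0.21 CPM in OF1, a log2 change of 0.77. IL18, an inflammasome-processed cytokine, averaged 5.61 ± 0.28 CPM in XL413 and 3.42 ± 0.49 CPM in OF1, a log2 change of 0.72. ACSL5, which activates long-chain fatty acids, averaged 8.91 CPM in XL413 and 5.61 CPM in OF1, a log2 change of 0.66. LAPTM5, a lysosomal membrane protein of blood cells (0.77), and C1QTNF6, a secreted C1q family protein (0.73), were higher at lower levels. The leukocyte list that holds LAPTM5 had 10 of 13 genes under 1 CPM in all 6 libraries, PTPRC among them, with MS4A1 and TYROBP at 0; its sum was 53.4 to 55.3 CPM in XL413 and 49.9 to 51.0 CPM in OF1, most of it CD68, which was not called. Keratinocyte and epithelial markers summed to 741 to 785 CPM in XL413 and 687 to 723 CPM in OF1. KRT8, AP1M2, CLDN4 and SFN were higher, 4 of 9 tested (1 without XL413 library 2 or 3), beside 3.88% of all tested genes. Of the 16 listed markers, 9 were under 1 CPM throughout, EPCAM, TP63 and CDH1 among them. Their part in the other results was not tested.

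Among the genes with the largest changes downward, OSCAR, a collagen receptor of osteoclasts, had 1.98, 1.12 and 1.41 CPM in XL413, against 3.68, 3.69 and 3.76 CPM in OF1 and 1.47, 1.47 and 1.499 CPM in DMSO. OF1 alone was high, and the log2 change was -1.29 ± 0.18 (adjusted p = 0.00148). FLRT2, a cell adhesion and guidance protein, had 5.30, 4.88 and 4.79 CPM in XL413, against 8.61, 7.19 and 7.73 CPM in OF1 and 5.81, 5.63 and 5.72 CPM in DMSO, a log2 change of -0.65 with no overlap. SLITRK4, a neuronal membrane protein, differed by -0.73. RAB39B (-0.69), IRAK1BP1 (-0.66), ZNF619 (-0.66) and GAGE12F (-0.74) differed by similar amounts at low levels, and each lost its call when some single library was left out, as did LAPTM5 and C1QTNF6. GAGE12F belongs to a family of near-identical copies, so its count is uncertain.

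**Figure D5:**
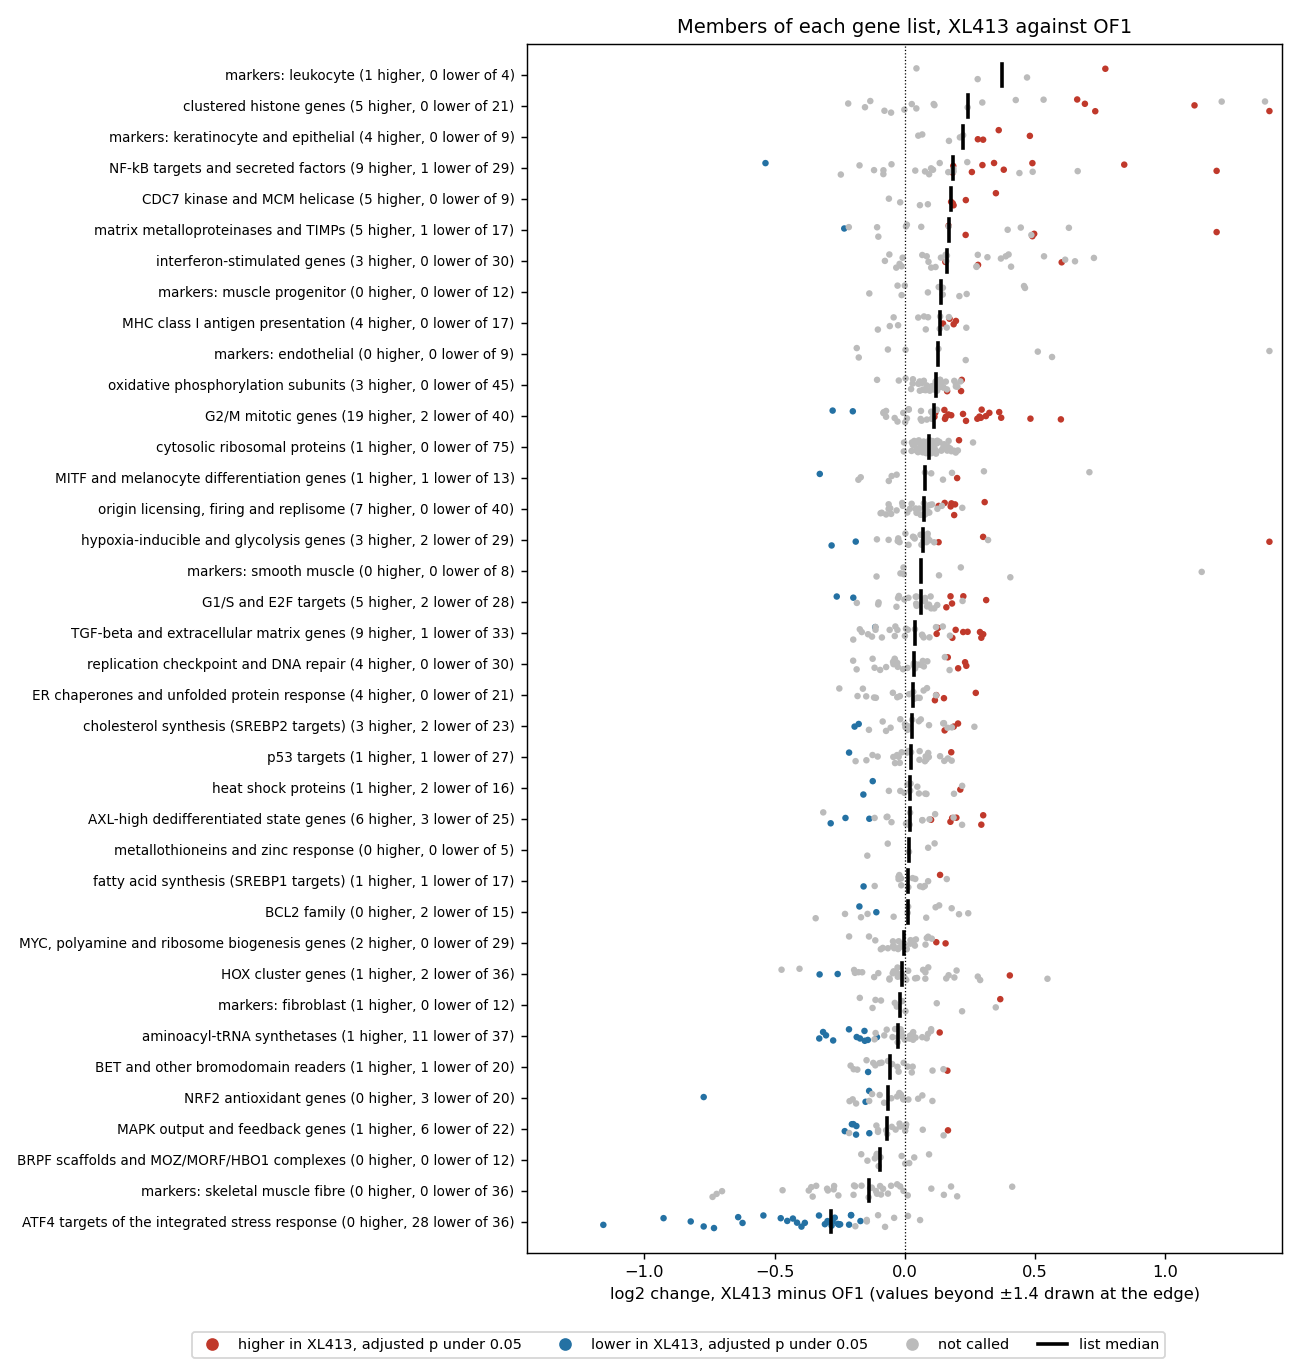
Log2 change (XL413 minus OF1, horizontal axis) of every tested member of each gene list (rows, ordered by median, with the numbers called); red points were called higher, blue lower and grey not called, black ticks are list medians and the dotted line is the median of all tested genes. The ATF4 list has 28 blue points and a median of -0.28, and the mitotic list 19 red points and a median of 0.11.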

How the data were processed

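Poly(A)-selected, strand-specific (dUTP) RNA libraries from A375 cells were sequenced on an Illumina HiSeq, per the labels' protocols. The authors deposited 1 table of expected counts per gene for all 12 libraries. The submitters' processing notes list Bowtie2 2.1.0, RSEM 1.2.15 and hg38. Sources used here do not state the annotation or the strand setting. Of the values of all 12 libraries, 10.6% were not whole. They were rounded and normalised by TMM, genes with too few counts were removed with filterByExpr, and XL413 was compared with OF1 by edgeR's quasi-likelihood test (edgeR 4.0.16, R 4.3.3) on the 6 libraries alone, with 4 residual degrees of freedom and Benjamini-Hochberg adjustment over all 15009 genes; a gene was called at an adjusted p under 0.05. Expected counts split shared reads by a model, so genes with near-identical copies are uncertain. CPM uses the TMM library sizes; DMSO was put on that scale for display. A list score is the mean of edgeR's log2 CPM, computed with a prior count of 2, over the tested members of the list. Log2 changes are XL413 minus OF1. A value after ± is the SD of 3 libraries beside a CPM mean and a standard error beside a log2 change. That standard error is the size of the change divided by the square root of the F statistic of its test. The procedure was run on simulated counts drawn independently for each gene and library. Those counts held no shift shared by the genes of a library, so that run did not test such shifts.

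Genes were named by a rule: the 12 largest changes in each direction (adjusted p under 0.05, average log2 CPM of at least 1, no overlap, leaving out clones, pseudogenes, readthrough and non-coding entries), up to 4 called members of each of 38 gene lists by p, and CDC7, DBF4, MCM2, BRPF1, BRD1, BRPF3, KAT6A, KAT6B and KAT7. Other list members were named after their values were seen. The comparison and the lists were chosen with earlier results of these data known. Coordinates and promoters are RefSeq's (GRCh38.p14). Coordinates were matched by symbol or synonym for 14707 of the 15009 genes. Promoter windows were matched for fewer. They were found for 30 of 36 tested ATF4 targets, 26 of 37 tRNA synthetases, 33 of 40 mitotic genes and 23 of 29 secreted factors and NF-kB targets. GARS, SARS and MARS had no match. In the deposited table, 28 entries have names altered to dates. Alternatives were DESeq2 1.42.0, limma-voom (limma 3.58.1), a test against a 1.2-fold change, RLE and upper-quartile factors, other filters, all 12 libraries, the replicate number as a block, a muscle-marker covariate and each library left out in turn.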

Additional observations from a re-analysis of the deposited data

How the results depend on the processing

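The 1158 calls (582 higher, 576 lower) became 990 in the fit of all 12 libraries, 1137 with DESeq2, 1091 with limma-voom, 1173 with RLE factors, 1494 with no filter, 1238 with a filter at 1 CPM and 1511 with the muscle-marker score as covariate. Upper-quartile factors gave 1249, of which 59.6% were higher, against 50.3% under TMM. Against a 1.2-fold change 28 remained past the threshold, 13 higher and 15 lower. With 1 library left out the total ran from 317 (without XL413 library 2) to 1704 (without OF1 library 3), the higher count from 151 to 856 and the lower count from 166 to 848. Of the 186 called genes on the lists or under the naming rule, 78 stayed called whichever library was left out, the same number under every alternative other than the 1.2-fold test that gave them an adjusted p, and 16 under all 16 alternatives, ASNS, PSAT1, SLC7A11, CHAC1, GDF15, HMMR, UBE2C, HIST1H2AC, HIST1H2BK, HIST3H2A, MMP3, CCL2 and DOCK2 among them. DESeq2 gave no adjusted p for 55 of the 1158. Genes that changed sign were not called in any direction: BRPF3 read 0.0019 with the muscle covariate and ran from -0.043 to 0.025 (XL413 library 3 left out; 0.0055 with OF1 library 2 left out) over the fits without a library, DBF4 from -0.046 to 0.024 (XL413 library 1), and KAT7 from -0.00036 (OF1 library 1) to 0.043. As a block, the replicate number gave 1687 calls (911 higher, 776 lower), 1138 of them shared, with 48 ribosomal protein genes and 23 respiratory chain genes higher and KAT6A lower (adjusted p = 0.0211). Deviations of equally numbered libraries correlated at 0.056, 0.249 and -0.050, and not every library correlated best with its own number. With 3 libraries per arm, these values do not settle whether the numbers pair the samples. The cause of these shifts was not tested. Depth of 30499559 counts or more leaves genes near 1 CPM with few reads and the widest errors.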
